A study of Mus musculus with 8 samples.

Results

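Interferon regulatory factors are the transcription factors that bind the promoters of interferon genes and of the genes that interferons induce, and 8 of them, Irf1, Irf2, Irf3, Irf4, Irf5, Irf7, Irf8 and Irf9, were compared here between resident microglia and invading macrophages of the ischemic mouse brain. Every gene probe whose name in the array files was one of these symbols was taken, which gave 9 probes of 8 genes, out of 55681 probes and 22441 named genes, with 2 probes for Irf1 and 1 for each other gene. C57BL/6 mice with transplanted bone marrow underwent 30 min of focal brain ischemia (MCAo, occlusion of the middle cerebral artery) and 7 days of reperfusion, with no further treatment. Resident microglia were sorted as GFP + cells and invading macrophages as RFP + cells, and replicates 1 to 4 of both groups are the 4 animals A, B, C and D. All 8 samples came from injured brains of chimeric animals, so that neither group is a sample of uninjured tissue. The sources used here do not give age, sex, the promoters behind GFP and RFP or the number of sorted cells. RNA was amplified as cDNA by a global PCR before it was hybridised to one-colour arrays.

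Members of the family share a DNA-binding domain that recognises repeats of GAAA, the core of the interferon-stimulated response element (ISRE). Irf3 and Irf7 are activated by kinases below the sensors of nucleic acids and start the transcription of type I interferons, while Irf9 joins STAT proteins to carry the signal of the interferon receptor to the ISRE. Irf8, with its partner PU.1 (Spi1), takes part in the development of microglia and monocytes. Irf1 is induced by interferon gamma, Irf2 opposes it at many promoters, Irf5 drives inflammatory cytokines, and Irf4 is tied to alternative activation.

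Probes of Irf7, Irf8 and Irf1 are shown, in build mm9. The Irf7 probe is shown because that member differed, the Irf8 probe because its groups did not overlap, and both Irf1 probes because they gave different values. Irf7 is printed whole because its coordinates span more bases than the probe holds. The Irf7 probe lies on chr7:148450664-148451014, a span of 351 bases for a probe of 60, so that it is split over an intron. The Irf1 probes lie on chr11:53590746-53590805 for transcript NM_008390 and on chr11:53591817-53591876 for NM_001159393. The Irf8 probe lies on chr8:123280324-123280383. No letters are in capitals, and whether the probes lie in coding or untranslated exons was not determined, since no mm9 annotation was used here.
Irf7 (60 bases): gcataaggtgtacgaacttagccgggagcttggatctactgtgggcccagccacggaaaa
Irf1, NM_008390 (first 30 bases): ctgctaaatggtgtttggtcatgtggtgga
Irf1, NM_001159393 (first 30 bases): taattctgagcgctgaataccaaccccaca
Irf8 (first 30 bases): aacagacagggtcgacagagtgtgtgatac

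The promoters were searched on both strands for the ISRE core (GAAANNGAAA), for the GAS element of interferon gamma signalling (TTCNNNGAA, which reads the same on either strand) and for the composite element bound by PU.1 with Irf4 or Irf8 (GGAANNGAAA, which can overlap the ISRE core). All 8 genes had a RefSeq promoter entry (GRCm38.p6, 250 bases before to 50 after the start). Irf1, Irf2 and Irf8 held a match and the other 5 genes did not, which says only that these letters are not in those windows. The stretches with matches are shown because they set the members that carry such an element apart from those that do not. The Irf1 stretch is chr11:53769898-53769957, the Irf2 stretch chr8:46739495-46739554 and the Irf8 stretch chr8:120736173-120736232, all on the plus strand, with the matches in capitals.
Irf1 (116 to 57 bases before the start): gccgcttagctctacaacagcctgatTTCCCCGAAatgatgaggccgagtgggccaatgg
Irf2 (250 to 191 bases before the start): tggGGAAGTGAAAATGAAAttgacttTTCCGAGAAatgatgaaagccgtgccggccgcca
Irf8 (185 to 126 bases before the start): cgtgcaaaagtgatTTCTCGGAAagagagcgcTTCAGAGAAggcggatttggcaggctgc

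Irf1 held 1 GAS match, Irf8 held 2, and Irf2 held 1 GAS match beside an ISRE core that overlaps a composite element. Of all 32851 promoter windows of 300 bases, 8.30% held a GAS match, 3.44% an ISRE core and 2.72% a composite element. A match is a description of the sequence, not a measured site.

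The arrays were comparable in depth, with 45.7% to 57.1% of the probes well above background and no saturated gene spot. Macrophage replicate 2, from animal B, stood apart: across probes, which are not independent, it correlated with the other macrophage arrays at 0.840 to 0.872, while those correlated with each other at 0.931 to 0.951. Both groups lay on 2 slides, one with 5 arrays (microglia 3 and 4, macrophages 2, 3 and 4) and one with 3 (microglia 1 and 2, macrophages 1). With 4 arrays a group, their number sets how precise a value can be. The comparison asked how the interferon regulatory factors differ between macrophages that entered the brain and the microglia beside them. Levels are log2 signals relative to the 75th percentile of each array, differences are macrophages minus microglia, and a probe counts as called at a Benjamini-Hochberg adjusted p under 0.05 (limma, two-sided, over 29359 tested probes). All 9 probes were bright enough to be tested, and no member's level is set against that of another member.

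Irf7 was the member that differed: its probe was higher in macrophages, and none of the other 8 probes was called in either direction. Of all tested probes 6.45% were called, 2.34% (688) as higher and 4.11% (1206) as lower in macrophages, and from 1 call among 9 probes (11.1%) nothing particular to the family is read. The share of called probes that were higher was 36.3%, and it was 53.2% with median centring, 25.4% with the percentile over detected probes, and 50.4% among probes well above background on all 8 arrays. At an unadjusted p under 0.05, which 23.5% of all probes met, 3 member probes stood out, Irf7 as higher and Irf8 and Irf3 as lower. The groups did not overlap for 2 member probes, against 16.7% of all probes. Irf7 had all macrophage arrays on top, as did 7.3% of all probes, and Irf8 had them at the bottom, as did 9.39%. In bulk samples like these, fewer cells of a type and less RNA per cell cannot be told apart.

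**Figure D1:**
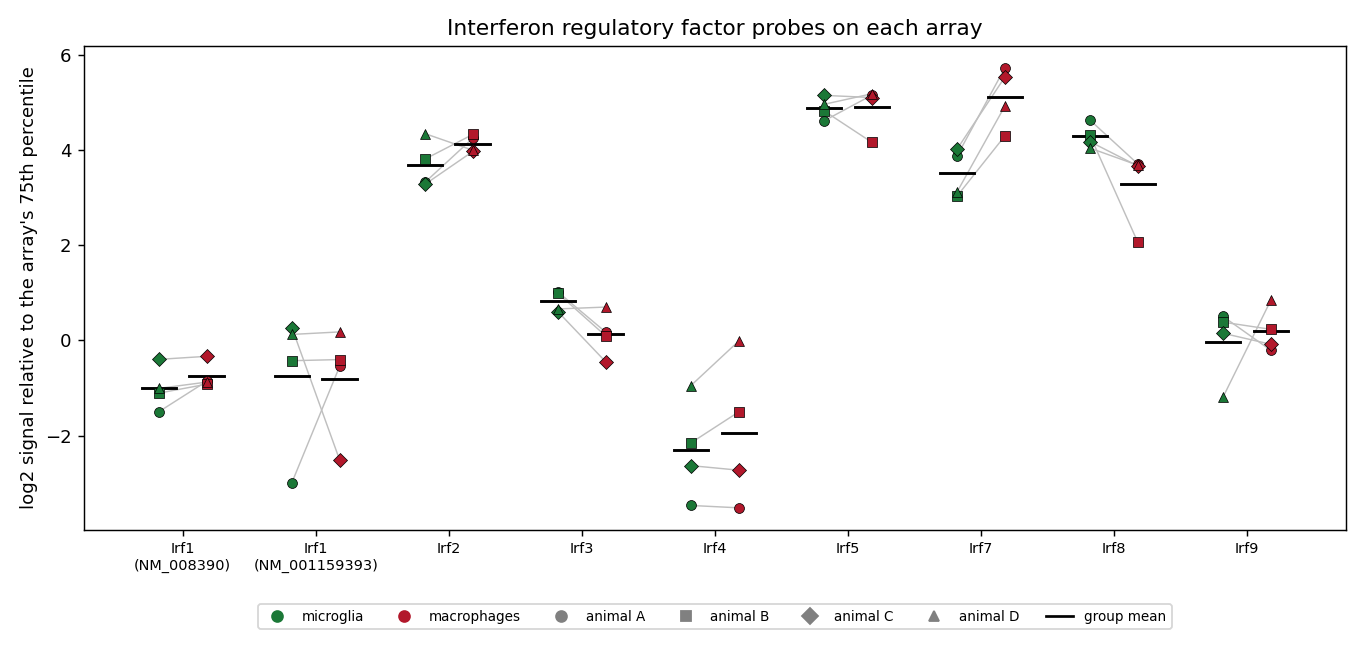
Log2 signal of each interferon regulatory factor probe on each array, relative to the array's 75th percentile (vertical axis), for microglia (green) and macrophages (red), with symbols for the animals, grey lines joining the samples of 1 animal and black bars for the group means. The 4 macrophage arrays lie above the 4 microglia arrays for Irf7 and below them for Irf8, and the groups overlap for the other 7 probes.

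Irf7, the interferon-inducible factor behind the later and larger wave of type I interferon, had levels of 3.88, 3.03, 4.02 and 3.12 on microglia arrays 1 to 4. On macrophage arrays 1 to 4 its levels were 5.73, 4.30, 5.54 and 4.93. Every macrophage array was above every microglia array, and the arrays of animals A and C were the higher ones in macrophages and in microglia alike. The mean was 5.12 ± 0.65 (SD, n = 4) in macrophages and 3.51 ± 0.51 (SD, n = 4) in microglia, a difference of 1.61 with a standard error of 0.39. This is a 3.06-fold higher signal in macrophages (95% interval 1.65 to 5.68), with an adjusted p of 0.0467 (limma). Within the animals the difference was 1.85, 1.27, 1.52 and 1.81 for A, B, C and D. With groups that did not overlap, the sign within each animal was fixed in advance.

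The Irf7 call stood close to the threshold. With each animal as a block, where 3.7% of all probes were called, its adjusted p was 0.0325 (limma), and with the slide as a block the difference was 1.68 and the adjusted p 0.0757. Within the slide of 5 arrays the difference was 1.35 (adjusted p 0.412, limma). Within that of 3 arrays, where macrophage array 1 stood alone, it was 2.28. Both signs were fixed in advance, since every macrophage array was above every microglia array. Among the 8 fits that leave out 1 array, Irf7 was called in 1, the fit without macrophage replicate 2, where the difference was 1.89 and the adjusted p 0.0136. Leaving out any of the other 7 arrays ended the call, with differences of 1.41 to 1.78 and adjusted p up to 0.131 (limma).

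**Figure D2:**
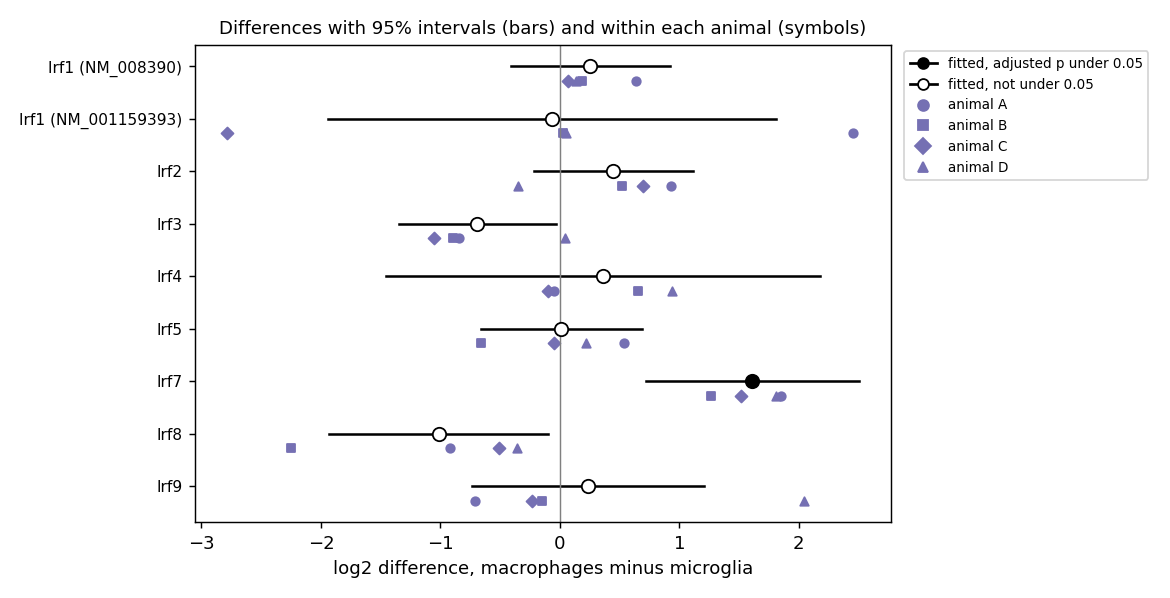
Log2 difference, macrophages minus microglia (horizontal axis), of each probe as fitted over 8 arrays (circles, filled where the adjusted p was under 0.05) with its 95% interval (bars), and within each of the 4 animals (small symbols). The interval of Irf7 runs from 0.72 to 2.50, those of Irf8 and Irf3 end just below 0, and the intervals of the other 6 probes include 0.

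Irf8, the partner of PU.1 in the development of microglia and monocytes, went the other way without passing the test. Its levels were 4.63, 4.31, 4.18 and 4.04 on microglia arrays 1 to 4 and 3.71, 2.06, 3.67 and 3.68 on macrophage arrays 1 to 4. All macrophage arrays were below all microglia arrays, 3 of them close together and replicate 2 far lower. The means were 4.29 ± 0.25 in microglia and 3.28 ± 0.81 in macrophages (SD, n = 4), a difference of -1.01 (95% interval -1.93 to -0.10), or a 2.02-fold lower signal, with an adjusted p of 0.174 (limma). The differences within animals A to D were -0.92, -2.25, -0.51 and -0.36, all in 1 direction, which the separation of the groups had already fixed. Without macrophage replicate 2 the difference was -0.61, and the adjusted p of 0.104 (limma) still missed the threshold.

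Irf3, which is present before any stimulus and is activated by phosphorylation, had levels of 1.02, 0.99, 0.61 and 0.66 in microglia and 0.17, 0.09, -0.45 and 0.70 in macrophages. The macrophage arrays of animals A, B and C were below all microglia arrays, while that of D lay among them. The difference of -0.69 (95% interval -1.35 to -0.03) was a 1.61-fold lower signal with an adjusted p of 0.192 (limma), and it was negative in 3 of 4 animals.

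Irf9, the DNA-binding subunit that STAT proteins join, ranged from -1.19 to 0.51 in microglia and from -0.21 to 0.85 in macrophages. Its difference of 0.24 (95% interval -0.73 to 1.21, adjusted p 0.775, limma) was within the spread of the replicates, and the microglia array of animal D was the lowest of all 8. The differences of Irf9 within animals A to D were -0.71, -0.15, -0.23 and 2.04, so that animal D alone was positive. Irf2, the member that opposes Irf1, ranged from 3.28 to 4.35 in microglia and from 3.97 to 4.33 in macrophages. The difference of Irf2 was 0.45 (95% interval -0.22 to 1.11, adjusted p 0.393, limma), with animal D alone going the other way.

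Irf1 was measured by 2 probes, which put the microglia arrays in the same order but parted on macrophage array 3, the highest of its group on one and the lowest on the other. The NM_008390 probe ran from -1.50 to -0.40 in microglia and from -0.92 to -0.33 in macrophages, with a difference of 0.26 (95% interval -0.41 to 0.92, adjusted p 0.635, limma) that was positive in all 4 animals. The NM_001159393 probe, designed on another transcript of the gene, was as low as -2.99 on microglia array 1 and -2.52 on macrophage array 3 but lay between -0.54 and 0.27 on the other 6 arrays. Its difference of -0.06 has a 95% interval from -1.94 to 1.81, wide enough to hold a several-fold change either way, and its sign turned with median centring (0.14). Irf1 therefore has no settled direction here.

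Irf5, the factor of inflammatory cytokine genes, ranged from 4.62 to 5.15 in microglia and was 5.16, 4.17, 5.11 and 5.19 on macrophage arrays 1 to 4. Macrophage replicates 1, 3 and 4 lay around the highest microglia array, and replicate 2 lay below all other arrays. Over all arrays the difference was 0.01 (95% interval -0.66 to 0.69, adjusted p 0.985, limma), and without replicate 2 it was 0.26 (adjusted p 0.437). Its sign depended on the scaling, with -0.26 after quantile normalization. Irf4, the factor tied to alternative activation, was close to background: 3 of 4 arrays of either group had it well above background, and both arrays of animal A did not. Its levels ran from -3.47 to -0.95 in microglia and from -3.52 to -0.01 in macrophages, highest in animal D in both groups, with a difference of 0.36 (95% interval -1.46 to 2.18, adjusted p 0.820, limma).

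**Figure D3:**
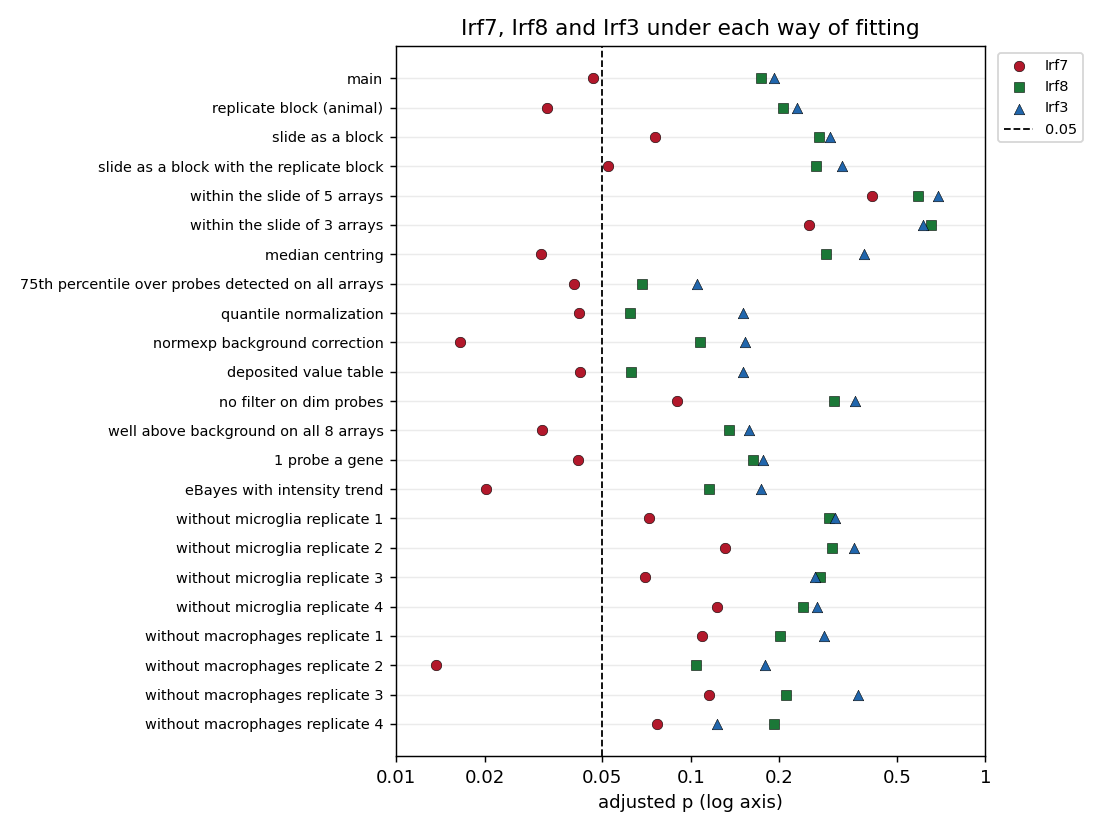
Adjusted p (horizontal, log axis) of Irf7, Irf8 and Irf3 under each way of fitting the data (vertical), with a dashed line at 0.05. Irf7 lies left of the line over all arrays with the animal as a block (0.0325) and without macrophage replicate 2 (0.0136), and right of it without any other single array; Irf8 and Irf3 lie right of the line throughout.

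Markers of cell types checked the labels and the makeup of the sorted samples. The 8 markers of homeostatic microglia had a summed level (log2 of the summed signals) of 9.52 to 9.87 in microglia and 7.20 to 8.65 in macrophages, so that they were lower but not absent in the RFP + samples. The 7 matched markers of monocyte-derived macrophages, S100a4 among them, had summed levels of 3.83 to 5.34 in microglia and 6.60 to 7.31 in macrophages. Ly6c2 was matched to no probe.

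Macrophage replicate 2, the array with the lowest Irf5, Irf7 and Irf8 among the macrophages, also had the lowest summed microglia markers (7.20). Its 8 endothelial markers, Pecam1 among them, summed to 9.14, against 3.52 to 5.60 on the other macrophage arrays and 2.0 to 2.43 in microglia. Its 7 natural killer cell markers, Prf1 among them, summed to 4.37, against 0.84 to 2.05 on the other macrophage arrays and 0.04 to 0.32 in microglia. For both of these lists every macrophage array was above every microglia array, so that they moved with the groups, as Irf7 did, and not with replicate 2 alone. The 7 neutrophil markers, S100a9 among them, summed to 6.76 on replicate 2, against 4.11 to 5.08 on the other macrophage arrays and 3.71 to 5.17 in microglia, and Mpo and Elane were not well above background on any array. Border macrophage markers, Pf4 among them, summed to 2.79 on replicate 2, against 4.56 to 5.18 on the other macrophage arrays and 4.22 to 4.92 in microglia. Pf4 averaged 3.64 in microglia and 3.95 in macrophages, while the rest of that list was lower in macrophages. Mrc1 averaged 2.96 and 1.88, Cd163 0.66 and -4.09, Lyve1 -2.74 and -5.20, and Cbr2 0.15 and -2.15. The part of these cell types in the levels of Irf5, Irf7 and Irf8 was not tested.

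**Figure D4:**
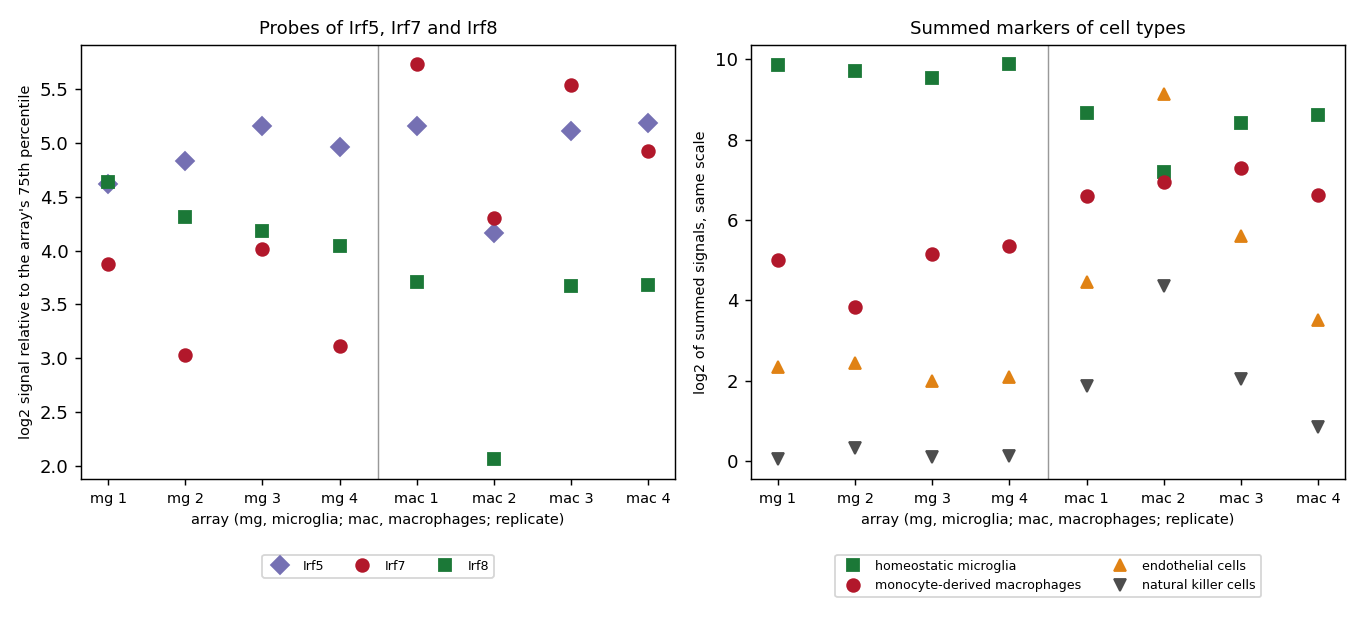
Left, log2 levels of the Irf5, Irf7 and Irf8 probes on each array, relative to the array's 75th percentile. Right, log2 of the summed signals of 4 marker lists on the same arrays. Macrophage replicate 2 has the lowest macrophage value of all 3 factors, and the highest summed endothelial (9.14) and natural killer cell (4.37) markers of the 8 arrays.

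Dendritic cells and lymphocytes also use these factors, Irf7 in plasmacytoid dendritic cells above all, Irf8 in conventional dendritic cells and Irf4 in lymphocytes. The plasmacytoid list summed to 5.66 to 6.42 in microglia and 6.06 to 7.10 in macrophages, and it holds Bst2, itself an interferon-stimulated gene. Of its 7 markers, Tcf4, Bst2 and Pacsin1 were well above background on all 8 arrays, Spib on 2, Ccr9 on 1 and Klk1 and Ly6d on none. Spib averaged -5.50 in microglia and -3.61 in macrophages. The 8 conventional dendritic cell markers, Itgax among them, summed to 1.53 to 2.09 in microglia and 1.91 to 3.37 in macrophages, with Xcr1 well above background on 1 array. B cell and plasma cell markers, Cd79b among them, summed to -0.03 to 1.80 in microglia and -0.27 to 0.74 in macrophages, with Ms4a1 not well above background on any array. Cd79b averaged 0.41 in microglia and -0.62 in macrophages. Jchain, well above background on 4 arrays, went the other way, with -5.30 and -1.75. T cell markers, Cd4 among them, summed to -0.17 to 0.24 and -0.61 to 0.28. Astrocyte markers summed to 3.66 to 3.83 in microglia and 0.49 to 1.11 in macrophages. Of these, Slc1a3 averaged 3.64 in microglia and -2.96 in macrophages, while Gfap went the other way, with -2.77 and -0.03, as did Slc1a2, with -3.38 and -2.34. The sums of neuronal markers (8.62 to 9.19 and 8.79 to 9.48, Snap25 among them, with Stmn2 not well above background on any array) and of oligodendrocyte markers (1.41 to 2.46 and 2.36 to 3.30, Mbp among them) overlapped between the groups. Snap25 made up nearly all of the neuronal sum, averaging 8.97 in microglia and 9.01 in macrophages. Tubb3 averaged -1.23 and -1.28, and Syt1 (-4.53 and -4.23) and Rbfox3 (-4.92 and -4.03) were each well above background on 2 arrays. The part of these cells in the member values was not tested.

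Genes around the factors were followed in 10 lists by role, with the brightest passing probe standing for each gene. Of 115 list genes tested, 8 were higher and 4 lower in macrophages. Of 13222 tested genes 6.72% were called, 2.64% (349) as higher and 4.08% (539) as lower. Blocking on the animal left 4 higher and 2 lower, against 1.42% and 2.47% of all genes, and a block for the slide left 6 and 3, against 1.52% and 2.96%. Without macrophage replicate 2 the counts were 21 and 5, against 8.15% (1077) and 6.61% (874) of all genes in the same fit. Within either slide alone none was called in either direction (limma), and at an unadjusted p under 0.05 there were 12 higher and 7 lower within the slide of 5 arrays (5.33% and 6.25% of all genes) and 9 and 3 within that of 3 (5.27% and 7.66%). Over all tested genes the median difference was 0.04, and at an unadjusted p under 0.05 12.2% were higher and 11.7% lower.

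Upstream of the factors, 2 of 14 sensors and adaptors were lower in macrophages, none higher, with a median difference of -0.32. Tmem173, the adaptor STING that relays cytosolic DNA to Irf3, had levels of 4.20, 4.27, 4.29 and 4.11 in microglia and 2.35, 1.42, 1.87 and 2.68 in macrophages. These groups lay far apart, with a difference of -2.14 and an adjusted p of 0.00438 (limma), and the call held in all 8 fits that leave out 1 array. Tlr3, the endosomal sensor of double-stranded RNA that signals to Irf3, averaged -0.11 in microglia and -1.62 in macrophages, a difference of -1.51 with an adjusted p of 0.0108 (limma). It too kept the call without any 1 array, but the animal block raised its adjusted p to 0.0544. The sign of the list's median turned within the slide of 3 arrays (0.06), with both slide and animal as blocks (0.19) and without macrophage replicate 2 (0.08), which had the lowest macrophage level of Tmem173 and of Tlr3.

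None of the 10 kinases and ubiquitin ligases that activate the factors was called (limma), with 2 higher at an unadjusted p under 0.05 and a median difference of 0.47, or 0.73 without macrophage replicate 2. Irak4, the kinase of the Myd88 route to Irf7 and Irf5, stood at the threshold, with a difference of 1.02 and an adjusted p of 0.0507 (limma). It was called in 8 of the 14 other settings, median centring and quantile normalization among them (adjusted p from 0.0194 to 0.487 over the 14, limma), and without macrophage replicate 2 (1.20, adjusted p 0.00937). Ikbke, the inducible kinase of Irf3 and Irf7, was called without that replicate alone, with a difference of 2.12 (adjusted p 0.0213, limma). Both were named after their values were seen.

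Among the 9 tested receptors and signal transducers, 1 was lower in macrophages, with a median difference of 0.07 that lay between -0.17 and 0.28 in the other fits. Ifngr1, the ligand-binding chain of the interferon gamma receptor, averaged 4.21 in microglia and 3.05 in macrophages. Its difference of -1.15 had an adjusted p of 0.0352 (limma), which the animal block raised to 0.0660, and the call held in 3 of the 8 fits. Stat2, a partner of Irf9, had a difference of 0.42 with an adjusted p of 0.423 (limma).

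None of the 10 tested DNA-binding partners was called in either direction or had an unadjusted p under 0.05 (limma), and their median difference was -0.02, between -0.22 and 0.31 in the other fits. Spi1, the partner of Irf8, had a difference of -0.52 (adjusted p 0.490, limma), with levels of 3.40 to 3.82 in microglia and of 3.60, 1.86, 3.65 and 3.48 on macrophage arrays 1 to 4. As for Irf8, replicate 2 was the low array. Spib and Batf2 had no passing probe. None of 9 tested corepressors and negative regulators was called (limma), with 2 lower at an unadjusted p under 0.05 and a median of -0.05, between -0.21 and 0.19 in the other fits, 5 of which called 1 gene lower.

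Interferon-stimulated genes that Irf3, Irf7 and the Irf9 complex drive had mostly positive differences, and few of them passed the test. Of 24 tested, 3 were higher and none was lower (limma), 15 were higher and 0 lower at an unadjusted p under 0.05, and 22 had a positive difference, with a median of 0.98 against 0.04 over all genes. Cmpk2, a mitochondrial nucleotide kinase, averaged 0.06 in microglia and 2.03 in macrophages, a difference of 1.97 (adjusted p 0.00833, limma) that held without any 1 array. Ifi44 differed by 2.10 (adjusted p 0.0218) and Rtp4, a chaperone of membrane receptors, by 1.10 (adjusted p 0.0164, limma). Without 1 array Ifi44 kept the call in 3 of 8 fits and Rtp4 in 5 of 8. The Rtp4 arrays lay close together, at 4.30 to 4.63 in microglia and 5.45 to 5.72 in macrophages.

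None of these 3 genes was called with the animal as a block, where their adjusted p was 0.0530, 0.0813 and 0.0701 (limma). Without macrophage replicate 2, 12 of the 24 were higher (8.15% of all genes in that fit) and the list's median was 1.14, while leaving out any other array gave 1 to 4 and medians of 0.78 to 1.11. The median was 0.99 with the slide as a block, 0.89 within the slide of 5 arrays and 1.16 within that of 3. Isg15, the ubiquitin-like product of interferon signalling, missed the threshold with a difference of 1.07 (adjusted p 0.114, limma), and Cxcl10, a chemokine, did not separate the groups with 0.04 on its brighter probe, while its other probe gave -1.90.

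Genes that interferon gamma induces through Irf1 and Irf8 gave 2 higher and none lower of 23 tested (limma), with 5 higher and 0 lower at an unadjusted p under 0.05 and a median of 0.58. Gbp6, a guanylate-binding protein of cell-autonomous defence, averaged 1.03 in microglia and 2.78 in macrophages, a difference of 1.75 (adjusted p 0.00913, limma, and 0.0297 with the animal as a block), while another of its probes gave 0.58. Ifi47, an immunity-related GTPase, had levels of 0.04, -0.45, -0.76 and -1.41 in microglia and of 0.85, 0.87, 0.80 and 0.87 in macrophages, a difference of 1.5 (adjusted p 0.0276, and 0.0733 with the block, limma) that kept its call in 2 of the 8 fits without 1 array. The macrophage arrays nearly coincided and were above each microglia array. The list's median was 0.54 with the slide as a block, 0.34 with slide and animal, 0.59 within the slide of 5 arrays and 0.41 within that of 3. Leaving out 1 array gave 1 or 2 higher genes, except 4 without macrophage replicate 2 (8.15% of all genes there).

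**Figure D5:**
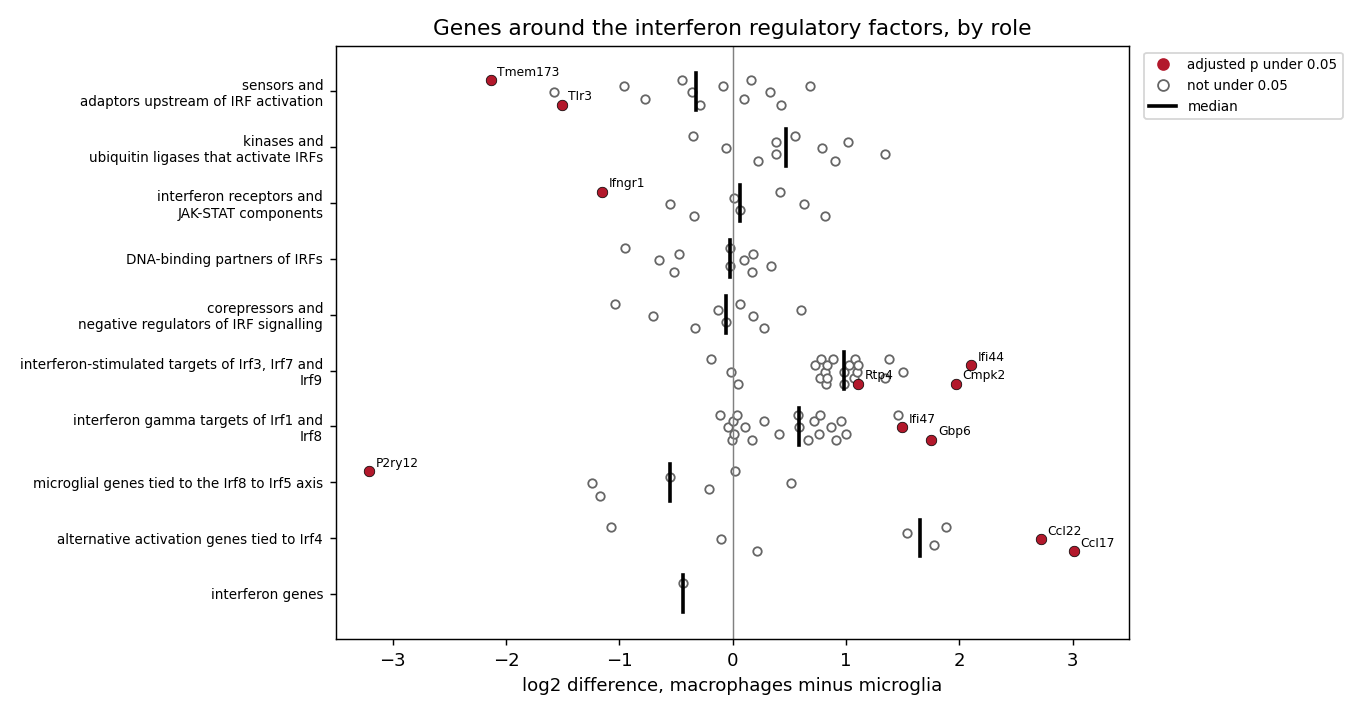
Log2 difference, macrophages minus microglia (horizontal axis), of the tested genes in the 10 lists by role, 1 gene left out (vertical axis), filled and named where the adjusted p was under 0.05, with black bars for the list medians. The 24 interferon-stimulated targets lie mostly right of 0, around a median of 0.98, while the sensors have their 2 called genes on the left; the point of Ccl22 is a fitted value whose microglia signal was not well above background.

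Of 7 microglial genes tied to the route from Irf8 to Irf5, P2ry12, the purinergic receptor of resting microglia, was lower in macrophages and none was higher. P2ry12 averaged 7.17 in microglia and 3.96 in macrophages, a difference of -3.21 (adjusted p 0.000707, limma, and 0.0110 with the animal as a block) that held without any 1 array. P2ry12 is also one of the microglia markers above. At an unadjusted p under 0.05 (limma), 3 genes of this list were lower (42.9%, against 11.7% of all genes) and 0 higher. The list's median was -0.55, -0.12 with slide and animal as blocks and -0.34 with median centring. Without macrophage replicate 2 it was -0.07, and 2 genes were called lower. The percentile over detected probes, quantile normalization, normexp and the deposited log2 values each called 3 genes lower (limma). The medians there were -0.71, -0.76, -0.56 and -0.75. Within the slide of 5 arrays none was called.

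Of 8 genes of alternative activation tied to Irf4, 2 chemokines were higher and none was lower, with a median of 1.66, although Irf4 itself was not called. In this list 6 genes had a positive difference and 2 a negative one, Mrc1 with -1.08 (adjusted p 0.220, limma) and Kdm6b with -0.10. No gene of the list was called without microglia replicate 1, microglia replicate 3 or macrophage replicate 4 (limma). The list's median was 0.92 without microglia replicate 2 and 1.02 without macrophage replicate 4. It was 0.83 within the slide of 5 arrays and 0.79 with normexp. On probes well above background on all 8 arrays it was 0.22 over 5 genes, with no call (limma). Ccl17, Ccl22 and Retnla could not pass that filter, so that the loss of both calls there was fixed in advance. Ccl17 averaged -2.73 in microglia (well above background on 3 of 4 arrays) and 0.29 in macrophages, a difference of 3.01 (adjusted p 0.0221, limma, and 0.0612 with the animal as a block). Ccl22 was not well above background on any microglia array and was at least 3.76-fold higher in macrophages (adjusted p 0.0354, limma). Ccl22 entered the test through its 4 macrophage arrays alone. Its adjusted p values, here and with the block, use microglia signals that were not well above background, so that its calls add no support. Without 1 array Ccl17 kept the call in 4 of 8 fits and Ccl22 in 3 of 8. With a block for the animal, Ccl22 (adjusted p 0.0287) and Chil3, a chitinase-like protein that differed by 1.77 (adjusted p 0.0340, and 0.279 without the block, limma), were the called genes of this list. Mrc1, Chil3 and Cd209a of this list are markers of border macrophages, monocyte-derived macrophages and dendritic cells as well. Of 8 interferon genes 1, Il28b, had a passing probe, with a difference of -0.44 that was not called, and the others, Ifnb1 and Ifng among them, were too dim to be tested.

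The genes whose levels followed Irf7 most closely over the 8 arrays, members aside, were Gypc (r = 0.988), Slfn4 (r = 0.985) and Napsa (r = 0.984). These correlations describe 8 arrays that share the 2 groups and the animals and carry no test. Gypc and Napsa were higher in macrophages, by 2.17 and 2.24 (adjusted p 0.0264 and 0.0321, limma), and Slfn4 differed by 2.84 with an adjusted p of 0.0884. All were picked for following Irf7 on these same arrays, so that their direction came with the choice and is no separate support.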

How the data were processed

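Per the file headers, Agilent Feature Extraction 10.7.3.1 read the scans of a design annotated in mm9, and the authors deposited its background-corrected signal intensity, not normalized between arrays. The authors also deposited a table of log2 values whose medians were 4.604 to 4.606 and which correlated with their own arrays at 0.996 to 1.000; its normalization is not given in the sources used here. Per the labels' protocols, cDNA was amplified by a global PCR, which can change the proportions of transcripts.

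Control spots and outlier spots were left out, replicate spots averaged on the log2 scale, and the 75th percentile of each array subtracted. Probes well above background on at least 4 of 8 arrays were tested with lmFit and eBayes (limma 3.58.1, R 4.3.3) and Benjamini-Hochberg adjustment, without a block. The test was also run on simulated data, with independent noise for each probe and array and without any effect of animal or slide. Where no array of a group was well above background, the fold was taken against the higher of the dimmer probe's own signal and the lowest signal well above background, per array. The labels name each sample's animal, so replicates are paired; within animals A to D the 2 samples' deviations from their group means correlated across probes at 0.0417, 0.0976, 0.0701 and -0.0186. Gene names came from the array files' accessions and symbols through the RefSeq table of GRCm38.p6. Of each list the 2 called genes with the largest difference in each direction were named, of each marker list the brightest gene, and for Irf7 the 3 genes most alike; Rtp4 and uncalled list genes were named after their values were seen. Some genes that the rule takes are not reported here by name. The members and lists were chosen with earlier results of these data known. Alternatives were other scalings, background correction, filters, blocks and single arrays left out.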

Additional observations from a re-analysis of the deposited data

Results flagged for a closer look

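In 3 of 40 groups of 4 arrays examined, 1 array lay far from the other 3 by a gap test whose critical value is 0.829 and which flags about 1 group in 20 by chance. Irf8 on macrophage replicate 2 was 2.06, against 3.67 to 3.71 on the other macrophage arrays. Irf5 on the same array was 4.17, against 5.11 to 5.19. The NM_008390 probe of Irf1 on macrophage replicate 3 was -0.33, against -0.92 to -0.86.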

How the results depend on the processing

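Irf2, Irf3, Irf7 and Irf8 kept their direction in every fit run, and Irf7 kept its call in 9 of 14 other settings. For Irf7 and Irf8, whose groups did not overlap, the sign was fixed in advance in every fit on the same normalized values. Only other scalings or background correction could have turned it. The Irf7 difference was not called with the slide as a block (1.68), with slide and animal as replicate block together (1.73), within the slide of 5 arrays (1.35), within that of 3 (2.28) and with no filter on dim probes (1.61), so that 0 members were called higher there (1 at an unadjusted p under 0.05 in each, limma). Its difference ran from 1.41 to 1.89 and the count of members called higher from 0 to 1 when 1 array was left out. Signs turned for the NM_001159393 probe of Irf1 within the slide of 3 arrays (1.17) and with median centring (0.14), and for its NM_008390 probe within the slide of 5 (-0.00696). They turned for Irf4 with the slide as a block (-0.0104) and within the slide of 3 (-0.71), for Irf9 within the slide of 3 (-0.65), and for Irf5 within the slide of 5 (-0.24), with the percentile over detected probes (-0.15), with quantile normalization (-0.26) and in the deposited log2 table (-0.26). Without 1 array the NM_001159393 probe ran from -0.81 to 0.50, Irf4 from -0.28 to 0.89, Irf5 from -0.0808 to 0.26 and Irf9 from -0.15 to 0.42. The count of list genes higher was 4 with the replicate block, 3 with slide and replicate block, 0 within either slide, 13 with normexp, 13 with an intensity trend, 4 with no filter and 3 to 21 without 1 array. The count lower was 2 with the replicate block, 1 with slide and replicate block, 0 within either slide, 7 with the percentile over detected probes, quantile normalization, normexp or the deposited table, and 3 to 5 without 1 array. Over all probes 688 were called higher and 1206 lower, against 352 and 735 with the replicate block, 2095 and 2005 without macrophage replicate 2, and, with fewer arrays, 17 and 187 within the slide of 5 and 16 and 74 within that of 3. These counts were 429 and 877 with the slide as a block, 245 and 598 with both blocks, 407 and 964 with no filter, 734 and 723 on probes well above background on all 8 arrays, 1064 and 935 with median centring, 1112 and 1411 with normexp and 1090 and 1411 with an intensity trend. The cause of the other changes was not tested. Median centring moved the median of all probes to 0.20 and the percentile over detected probes to -0.16. The replicate block (animal) ended the calls of Tlr3, Ifngr1, Cmpk2, Ifi44, Rtp4, Ifi47 and Ccl17, added that of Chil3 and changed no other call among members and list genes.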
